A study of Mus musculus with 10 samples.

Results

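Expression of 10 genes for T cell checkpoint and exhaustion receptors was examined in CT26 tumors that were removed before treatment. The genes were chosen by name as Pdcd1, Ctla4, Lag3, Havcr2, Tigit, Tox, Entpd1, Tnfrsf9, Cd160 and Btla, and all 10 were found among the 36009 rows of the count table. They include 8 inhibitory or costimulatory receptors of T cells, the ectoenzyme gene Entpd1 and the transcription factor gene Tox. CT26 is a colorectal carcinoma line of BALB/c mice, and it was grown under the skin of wild-type (WT) female BALB/c animals, whose age the labels do not give. Part of each tumor was resected with no prior treatment and its polyA RNA was sequenced, and a hydrogel loaded with poly(I:C), a synthetic double-stranded RNA, was then placed on the tumor that remained. The 6 responders were mice with complete regression and the 4 non-responders were mice whose tumors grew without delay. The comparison addressed which features of untreated tumors differed with the later response. All tumors came from a single cell line at a single site, and each library was a bulk mixture of tumor cells and the cells around them. Tumors are numbered within a group only to name them.

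Checkpoint receptors are surface proteins that dampen signaling through the T cell receptor when they meet their ligands on tumor or myeloid cells. Activated T cells induce several of them for a short time, and T cells that are exposed to antigen for long, as in tumors, keep them at high levels together with the transcription factor TOX in a state called exhaustion. Antibodies that block PD-1, CTLA-4 or LAG-3 are used to treat cancer. Several of these genes are also active outside T cells, and macrophages and dendritic cells are known to express Havcr2 and Entpd1, while NK cells express Tigit and Cd160 and B cells express Btla.

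The sequence before the transcription start is shown for 3 genes with unlike values in these tumors. These are Pdcd1, which followed Cd8a from tumor to tumor, Havcr2, which was higher in responders, and Tnfrsf9, whose estimate was nearest to 0. The sequences are from the RefSeq promoter table on GRCm38.p6, which matched 8 of the 10 genes with 11 start sites, and Lag3 and Tox were not analysed here. Each line holds the 250 bases before the start, 5′ to 3′ on the strand of the gene, and capitals mark motif matches on either strand. Pdcd1 (chr1:94052554-94052803, minus strand) lies just before the first exon, and its capitals are a pair of NFAT core motifs on the opposite strand:
Pdcd1: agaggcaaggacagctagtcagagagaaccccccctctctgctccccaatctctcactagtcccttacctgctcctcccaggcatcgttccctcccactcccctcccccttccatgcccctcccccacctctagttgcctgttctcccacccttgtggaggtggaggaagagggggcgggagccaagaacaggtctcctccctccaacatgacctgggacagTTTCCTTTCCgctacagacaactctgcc
Havcr2 (chr11:46454681-46454930, plus strand) also lies before the first exon and has a single AP-1 motif in capitals:
Havcr2: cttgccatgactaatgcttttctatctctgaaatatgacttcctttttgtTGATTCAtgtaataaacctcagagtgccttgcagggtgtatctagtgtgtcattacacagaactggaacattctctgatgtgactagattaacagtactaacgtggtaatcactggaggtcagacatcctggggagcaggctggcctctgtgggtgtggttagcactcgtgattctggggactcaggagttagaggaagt
For Tnfrsf9, the window of start site 1 is not printed and held matches of the NFAT core only. Tnfrsf9 (chr4:150927749-150927998, plus strand) is the window of start site 2 of this gene. It lies inside the annotated gene, just before the first exon of transcripts that start later, with its last bases in the first exon of 1 transcript, and in an intron of Camta1 on the opposite strand. Its capitals are in order NFAT core, NFAT core, GAS-type, NFAT core and AP-1:
Tnfrsf9: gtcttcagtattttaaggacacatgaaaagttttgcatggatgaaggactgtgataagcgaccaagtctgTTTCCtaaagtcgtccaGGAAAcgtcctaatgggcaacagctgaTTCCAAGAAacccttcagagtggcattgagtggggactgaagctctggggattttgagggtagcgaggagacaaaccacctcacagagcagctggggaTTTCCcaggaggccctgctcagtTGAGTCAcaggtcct

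NFAT and AP-1 are transcription factors that act below the T cell receptor, STAT factors bind GAS-type motifs, and interferon (IFN) regulatory factors bind ISRE-type motifs. The search covered both strands of 300 bases per promoter, 250 before and 50 after the start, and no match in the windows printed here overlapped another. The NFAT core GGAAA was in 7 of the 11 windows of these genes and in 61.3% of all 32851 promoters. The AP-1 motif TGANTCA was in 2 windows, those of Havcr2 and Tnfrsf9, and in 7.81% of all promoters. The GAS-type motif TTCNNNGAA was in 2 windows, of Cd160 and Tnfrsf9, and in 8.30% of promoters, and the ISRE-type motif GAAANNGAA was in 2, of Btla and Ctla4, and in 8.56% of promoters. A match is only a run of letters, and factor binding was not measured.

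The libraries held between 29065126 and 38042544 estimated counts in responders and between 23374649 and 32986456 in non-responders. After a filter on low counts, 16041 genes were tested for a difference between the groups by edgeR, with p-values adjusted over all of them. Of these, 1293 passed an adjusted p of 0.05, or 8.06%. Checked against markers of the labelled carcinoma, Krt20 and Cdh1 were detected, while Epcam, Krt8, Krt18 and Vil1 had at most 0.709, 0.565, 0.0937 and 0.149 CPM (counts relative to the library total after TMM scaling) in any tumor and were not tested. The labels name each tumor and no separate cultures of the line, so p-values measure the spread between the tumors of these mice.

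Of the 10 genes, 9 passed the filter on low counts, and Ctla4 did not. Havcr2 and Entpd1 passed the test as higher in responders, and none passed as lower, so 2 of 9 were called higher where 4.71% of all genes tested were. The direction was shared more widely, with a higher estimate in responders for 8 of the 9 genes against 48.2% of all genes tested, and Tnfrsf9 was the exception. At an unadjusted p under 0.05 the number of these genes that were higher was 6, against 15.6% of all genes tested. Their median log2 fold change (log2FC, responders over non-responders) was 0.70, against -0.01 over all genes tested. In bulk tumors, fewer T cells and less RNA of a gene per T cell cannot be told apart.

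**Figure D1:**
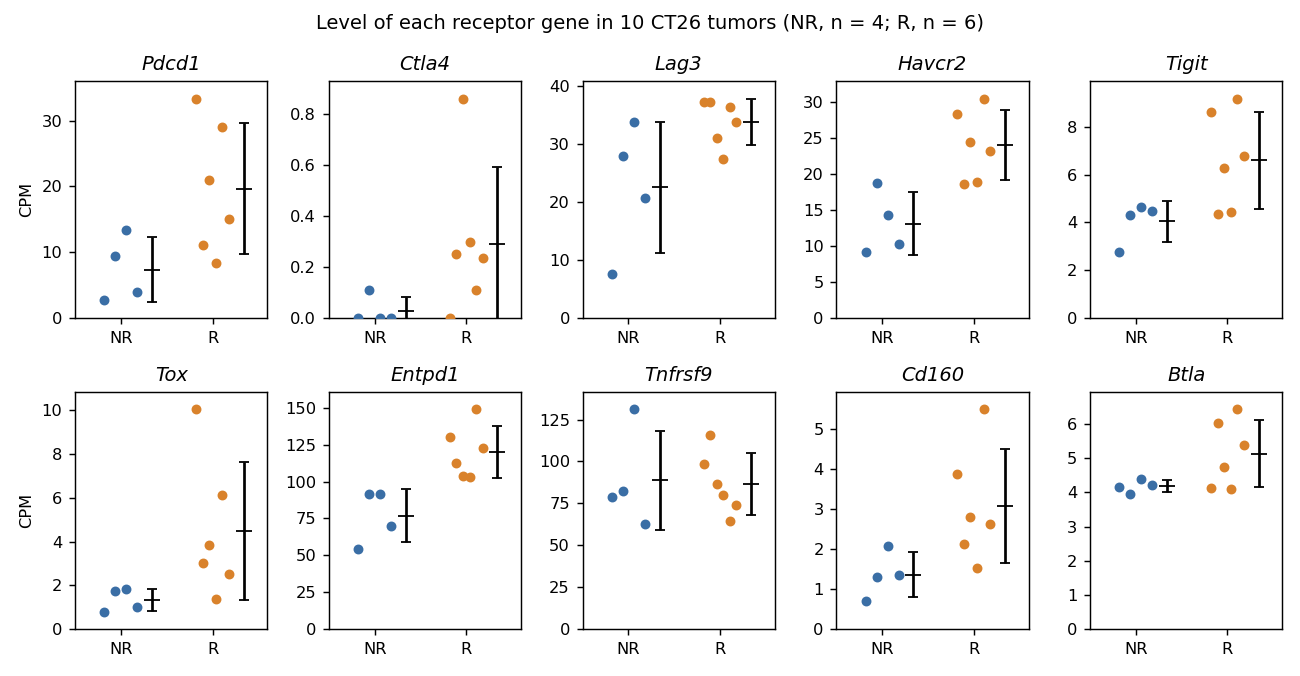
Level of each of the 10 genes in CPM (y axis, from 0, a scale of its own per panel) in non-responders (NR, n = 4, blue) and responders (R, n = 6, orange). Each point is 1 tumor, and the bar beside them is the mean ± SD, cut at 0 for Ctla4. Only for Entpd1 do all 6 responders lie above all 4 non-responders, and for Tnfrsf9 the highest tumor is a non-responder at 131 CPM.

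Pdcd1 encodes PD-1, the receptor of PD-L1 and PD-L2, and lies on chromosome 1 (94038305 to 94052553, minus strand, GRCm38). Its level in responders ranged from 8.42 CPM in responder 4 through a median of 17.9 CPM to 33.3 CPM in responder 1. The non-responders were at 2.75, 9.41, 13.4 and 3.92 CPM. Of 6 responders, 4 lay above every non-responder, while responders 2 and 4 were within the range of non-responders. The mean was 19.6 ± 9.95 CPM (SD, n = 6) against 7.36 ± 4.94 CPM (SD, n = 4), and the log2FC of 1.43 (SE 0.49) did not pass the test (edgeR adjusted p = 0.0863).

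Ctla4 (chromosome 1, 60887000 to 60915832, plus strand) encodes CTLA-4, which competes with the costimulatory receptor CD28 for its ligands. It had few counts in every tumor. The estimated counts in responders 1 to 6 were 0, 8.17, 25.4, 9.03, 3.79 and 8.77, and those in the non-responders were 0, 3.29, 0 and 0. Counts were thus found in 5 of 6 responders and 1 of 4 non-responders, where a count of 0 allows up to 3 counts, or 0.0783 to 0.130 CPM depending on the library. Summed over tumors and rounded, 55 counts stood against 3, a ratio per TMM-scaled total of 10.1 (exact 95% interval 3.28 to 50.5, which covers counting error only). Responder 3 held more of these counts than any other tumor. Without the filter, Ctla4 had a log2FC of 3.19 (SE 1.13) and did not pass (edgeR adjusted p = 0.131). Both values rest on few tumors, since the counts of non-responders are those of non-responder 2 alone, and the log2FC was 6.17 without that tumor and 2.53 without responder 3.

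Lag3 (chromosome 6, 124904361 to 124911705, minus strand) encodes LAG-3, which binds MHC class II. Responders had a lowest level of 27.4, a median of 35.0 and a highest of 37.3 CPM, whereas the non-responders had 7.67, 28.0, 33.8 and 20.7 CPM. The responders were close together, and the spread was on the side of the non-responders, of which non-responder 1 was lowest and non-responders 2 and 3 lay within the range of responders. The mean was 33.8 ± 3.97 CPM (SD, n = 6) against 22.5 ± 11.3 CPM (SD, n = 4), a log2FC of 0.59 (SE 0.29) that did not pass (edgeR adjusted p = 0.211).

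Havcr2 (chromosome 11, 46454935 to 46481255, plus strand) encodes TIM-3, an inhibitory receptor of T cells and myeloid cells. It was between 18.67 and 30.5 CPM in responders, with a median of 23.8 CPM. The non-responders had 9.16, 18.74, 14.4 and 10.3 CPM. The groups touched at 1 point, where responder 2 was just below non-responder 2, and the other 5 responders lay above every non-responder. Havcr2 was 1.83-fold higher in responders, with a log2FC of 0.87 (SE 0.21, edgeR adjusted p = 0.0368), and means of 24.0 ± 4.82 CPM (SD, n = 6) against 13.1 ± 4.36 CPM (SD, n = 4). The call held when responder 4 or non-responder 2 was left out and was lost when any 1 of the other 8 tumors was left out, with an edgeR adjusted p of at most 0.0967 and a log2FC of 0.74 to 1.10 over the 10 fits.

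Tigit (chromosome 16, 43648867 to 43664146, minus strand) encodes an inhibitory receptor of T and NK cells that binds the poliovirus receptor. Its lowest, median and highest levels in responders were 4.34, 6.51 and 9.18 CPM. The non-responders had 2.79, 4.29, 4.64 and 4.46 CPM, so 3 of them were close together and non-responder 1 was lower. Responders 2 and 4 were below the highest non-responder and the other 4 were above. The log2FC was 0.70 (SE 0.24) and did not pass (edgeR adjusted p = 0.084).

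Cd160 and Btla encode receptors that share the ligand HVEM, the product of Tnfrsf14. Cd160 (chromosome 3, 96798763 to 96829351, minus strand) ranged from 1.52 through a median of 2.70 to 5.48 CPM in responders and was at 0.686, 1.31, 2.08 and 1.36 CPM in the non-responders. Only responder 4 was within the range of non-responders. Its log2FC of 1.18 (SE 0.38) did not pass (edgeR adjusted p = 0.0709), and its exons overlap those of Pdzk1 on the opposite strand, so counts may be shared where strand was not used. Btla (chromosome 16, 45224315 to 45257670, plus strand) ranged from 4.09 through a median of 5.07 to 6.44 CPM in responders, and the non-responders were within a narrow range at 4.16, 3.96, 4.38 and 4.22 CPM. Responders 1 and 4 were within the range of non-responders, and the log2FC of 0.30 (SE 0.14) did not pass (edgeR adjusted p = 0.19).

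Entpd1 (chromosome 19, 40612366 to 40741602, plus strand) encodes CD39, an ectoenzyme that breaks down extracellular ATP in the pathway to adenosine, and it marks exhausted T cells as well as regulatory T cells (Tregs) and many myeloid cells. The responders had a lowest level of 103, a median of 118 and a highest of 149 CPM. The non-responders had 54.4, 91.6, 91.3 and 70.2 CPM. Entpd1 was the only one of these genes whose groups did not overlap as higher in responders, a pattern of 5.84% of all genes tested. The level was 1.56-fold higher, with a log2FC of 0.65 (SE 0.15, edgeR adjusted p = 0.0358) and means of 120.2 ± 17.8 CPM (SD, n = 6) and 76.9 ± 18.0 CPM (SD, n = 4). The call held without responder 4, non-responder 2 or non-responder 3 and was lost without any 1 of the other 7 tumors (edgeR adjusted p of at most 0.0941, log2FC of 0.52 to 0.74 over the 10 fits).

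Tox (chromosome 4, 6686353 to 6991557, minus strand) encodes a transcription factor that maintains exhausted T cells. Its level in responders ranged from 1.35 CPM in responder 4 through a median of 3.42 CPM to 10.1 CPM in responder 1. The non-responders were at 0.767, 1.72, 1.82 and 1.03 CPM. Only responder 4 lay within their range. Tox had the largest estimate of the 9 genes tested, a log2FC of 1.75 (SE 0.52), with an edgeR adjusted p of 0.0606. Its exons overlap the antisense gene Gm11802, and how reads of the pair were split is not known.

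Tnfrsf9 (chromosome 4, 150914562 to 150946102, plus strand) encodes CD137, a costimulatory receptor that T cells induce on activation, and it was the only one of the 9 genes tested with a lower estimate in responders. Responders ranged from 64.5 through a median of 83.0 to 116 CPM, and the non-responders were at 78.9, 82.5, 131 and 62.6 CPM. The range of non-responders covered that of responders, and no responder lay above all non-responders. The mean was 86.5 ± 18.3 CPM (SD, n = 6) against 88.8 ± 29.5 CPM (SD, n = 4), with a log2FC of -0.04 (SE 0.20, edgeR adjusted p = 0.926).

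Levels of different genes were compared per length, as CPM per kilobase (kb) of annotated exon, over all 10 tumors. Tnfrsf9 was highest with 32.1 ± 8.04 CPM per kb (SD, n = 10), followed by Entpd1 with 18.4 ± 5.02 and Lag3 with 13.9 ± 4.37 CPM per kb. Each of these was above the next gene in at least 9 of 10 tumors. Pdcd1 and Havcr2, at 7.63 ± 5.27 and 7.23 ± 2.62 CPM per kb, did not differ beyond their spread, since Pdcd1 was above Havcr2 in 4 of 10 tumors. Their order also differed by group, with means of 10.2 for Pdcd1, 8.83 for Havcr2 and 7.18 for Tigit in responders and of 3.81, 4.83 and 4.40 CPM per kb in non-responders. Over all tumors Tigit followed with 6.07 ± 2.25 CPM per kb and was above Btla, at 1.40 ± 0.262 CPM per kb, in all 10 tumors. Btla was above Cd160, at 0.901 ± 0.536 CPM per kb, in 8 tumors. At the low end were Tox with 0.423 ± 0.379 (0.813 with the length of the longest transcript, against 0.919 for Cd160) and Ctla4 with 0.0801 ± 0.113 CPM per kb. For scale, the T cell receptor subunit gene Cd3e was at 3.24 ± 2.02, Cd8a at 6.83 ± 5.81, the Treg factor gene Foxp3 at 1.69 ± 0.330 and the macrophage marker Adgre1 at 56.5 ± 20.4 CPM per kb. The genes highest in this order, Tnfrsf9, Entpd1 and Lag3, were thus above Cd3e on the scale of level per length. This does not hold for every reference, since the T cell receptor gene Trac was at 16.1 ± 10.5 and Cd4 at 20.4 ± 3.55 CPM per kb. By mean, Lag3 was below both and Entpd1 was below Cd4.

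**Figure D2:**
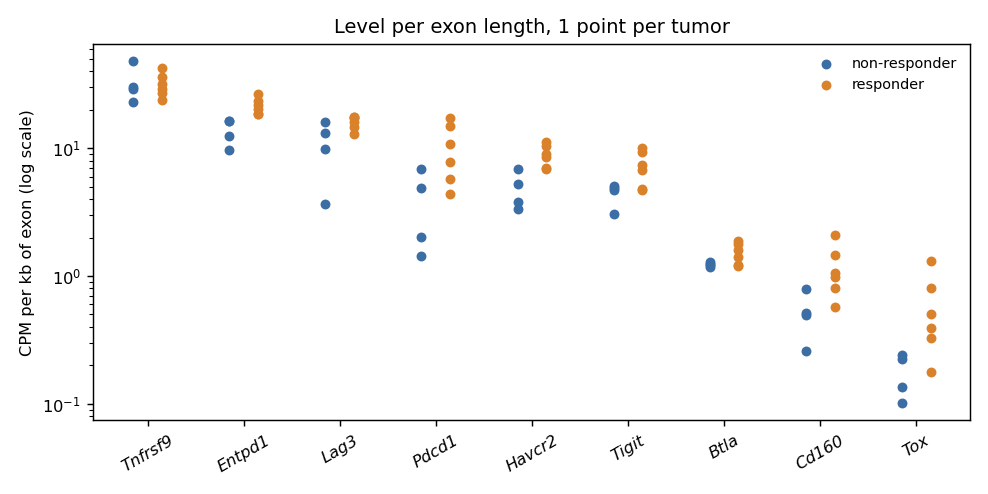
Level per exon length in CPM per kb (y axis, log scale) for the 9 genes that were tested, ordered by their mean over all tumors. Each point is 1 tumor, non-responders in blue and responders in orange. Tnfrsf9 is at the top with a mean of 32.1 and Tox at the bottom with a mean of 0.423 CPM per kb, and the spread between tumors is widest for Pdcd1 and Tox and narrow for Btla.

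Markers of several cell types were also higher in responders, and their values are set beside these genes because cells of several types are known to express them. For comparison, 4.71% of all genes tested were called higher and 48.2% had a higher estimate. Among T cell markers, 10 of 10 had a higher estimate and Lck alone passed, and their summed level was 135 to 351 CPM in responders and 93.3 to 162 CPM in non-responders. Cd3e was at 17.2 ± 8.43 against 7.17 ± 2.12 CPM (log2FC 1.27, edgeR adjusted p = 0.0523) and Cd8a at 35.1 ± 21.6 against 9.42 ± 5.72 CPM (log2FC 1.91, edgeR adjusted p = 0.0535). The CD8 markers summed to 15.1 to 82.0 CPM in responders and 4.97 to 22.0 CPM in non-responders, and 1 of 2, Cd8b1, passed. Cd4 and Foxp3 differed less, with log2FC values of 0.27 and 0.19 (edgeR adjusted p = 0.20 and 0.465), and Treg markers summed to 22.5 to 34.4 against 19.1 to 30.8 CPM with 0 of 3 called.

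Macrophage markers summed to 2919 to 4343 CPM in responders and 2052 to 2761 CPM in non-responders, and 5 of 8 were called higher. Csf1r, Mertk and Mrc1 were not called, with log2FC values of 0.24, 0.03 and -0.13. Adgre1, which encodes the macrophage antigen F4/80, had a log2FC of 0.87 (SE 0.19, edgeR adjusted p = 0.031), and Ptprc, which encodes the leukocyte antigen CD45, had 0.60 (SE 0.15, edgeR adjusted p = 0.0413). NK cell markers summed to 81.0 to 153 CPM against 19.9 to 72.4 CPM, with 2 of 5 tested called higher and Klra4 and Klra8 at or near 0. The largest parts of this sum were Klrk1, at a mean of 44.7 against 19.6 CPM, and Gzma, at 38.9 against 25.1 CPM. Ncr1, Klrb1c and Gzma did not pass (edgeR adjusted p = 0.0866, 0.094 and 0.301). Dendritic cell markers summed to 268 to 350 against 136 to 292 CPM, with 1 of 8 called higher and 6 of 8 with a higher estimate. Most of this sum was Itgax, at a mean of 242 against 174 CPM. Zbtb46 and Cd209a had lower estimates (log2FC -0.16 and -0.34). Mast cell markers summed to 49.4 to 173 against 26.2 to 57.0 CPM (2 of 5 called higher). B cell markers were low, at 4.93 to 10.8 against 3.47 to 6.35 CPM with 0 of 5 tested called. Endothelial markers summed to 86.1 to 142 against 68.8 to 104 CPM (0 of 5). Markers of muscle and fat tissue also varied, and the source of their RNA was not tested. Skeletal muscle markers summed to 390 to 1330 CPM in responders and 349 to 456 CPM in non-responders (2 of 6 called higher), and adipocyte markers to 15.7 to 52.1 against 8.54 to 19.2 CPM (0 of 4 tested). Carcinoma markers ran the other way, at 17.0 to 41.4 against 38.8 to 82.8 CPM (0 of 2 tested called). The part of each cell type in the receptor levels was not tested by these sums.

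To ask whether the genes differed at equal T cell receptor RNA, the mean log2 CPM of Cd3d, Cd3e and Cd3g was added to the fit as a covariate. With this covariate 0 of the 9 genes passed, and neither did any other gene (0% of 16041 genes, with 1539 at an unadjusted p under 0.05 by edgeR and 0 called by limma-voom). The median log2FC of the 9 genes was 0.05, against 0.70 without the covariate. Pdcd1, Tigit, Cd160, Lag3 and Tox moved to 0.02, 0.03, 0.03, 0.05 and 0.11 on the log2 scale, with edgeR adjusted p between 0.94 and 0.985. Havcr2 and Entpd1 had the largest estimates of this fit, 0.33 (SE 0.15) and 0.24 (SE 0.11), down from 0.87 and 0.65 without the covariate, with edgeR adjusted p of 0.525 and 0.508. Entpd1 was the only one of them still at an unadjusted p under 0.05 by edgeR. The Cd3 level and the response group move together in these tumors, so their parts cannot be told apart, and an estimate near 0 does not show equal levels.

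**Figure D3:**
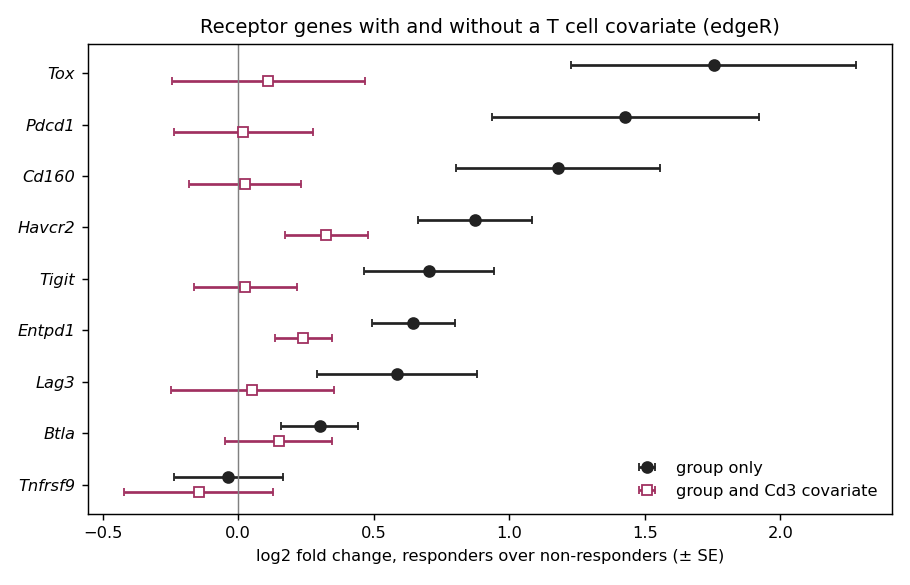
Log2 fold change of responders over non-responders (x axis) with its SE for the 9 genes tested, from the edgeR fit with the group alone (filled circles) and with the Cd3 covariate (open squares). With the covariate the estimates of Tox, Pdcd1, Cd160, Tigit and Lag3 lie between 0.02 and 0.11, and Havcr2 and Entpd1 are at 0.33 and 0.24.

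Each gene was also divided by the geometric mean of Cd3d, Cd3e and Cd3g in the same tumor, which was 18.0, 10.1, 11.9, 6.04, 24.1 and 10.5 CPM in responders 1 to 6 and 3.11, 7.17, 7.95 and 4.55 CPM in the non-responders. These ratios are given with no test, and the groups overlapped for all 9 genes. Cd160 was the most even, at 0.210 to 0.252 in responders and 0.182 to 0.298 in non-responders. Tox was at 0.224 to 0.323 in all tumors except responder 1, which had 0.559. Pdcd1 was at 1.11 to 1.85 in responders and at 0.884, 1.31, 1.68 and 0.862 in the non-responders. For these genes the tumors were thus closer together per Cd3 than in CPM. The mean log2 difference per Cd3, responders minus non-responders, was -0.04 for Cd160, 0.35 for Tox and 0.33 for Pdcd1.

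The remaining genes had a lower median ratio in responders. Tnfrsf9 had a median of 7.13 in responders, with 2.68 to 13.2, against 25.4, 11.5, 16.5 and 13.8 in the non-responders, so 5 of 6 responders lay below every non-responder. Its mean log2 difference was -1.21. In CPM the log2FC of Tnfrsf9 was -0.04, while those of Cd3d, Cd3e and Cd3g were 1.05, 1.27 and 1.41. A gene with equal CPM in both groups thus has a lower ratio in responders, and the Tnfrsf9 RNA per T cell was not tested. Btla was next with -0.92, at 0.230 to 0.678 in responders and 1.34, 0.552, 0.551 and 0.929 in the non-responders. For Entpd1, Tigit, Lag3 and Havcr2 the log2 differences were -0.53, -0.52, -0.43 and -0.29. With all T cell markers as the reference instead, the differences were -0.09 for Havcr2, -0.22 for Lag3, -0.33 for Entpd1, -0.32 for Tigit, -0.72 for Btla and -1.01 for Tnfrsf9, and 0.53, 0.55 and 0.16 for Pdcd1, Tox and Cd160, so that Cd160 changed sign. Responder 5, which had the highest Cd3 level, had the lowest ratio of Lag3, Havcr2, Tigit, Entpd1 and Tnfrsf9, and non-responder 1, which had the lowest Cd3 level, had the highest ratio of Entpd1, Tnfrsf9 and Btla. The Cd3 level is the divisor of these ratios.

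**Figure D4:**
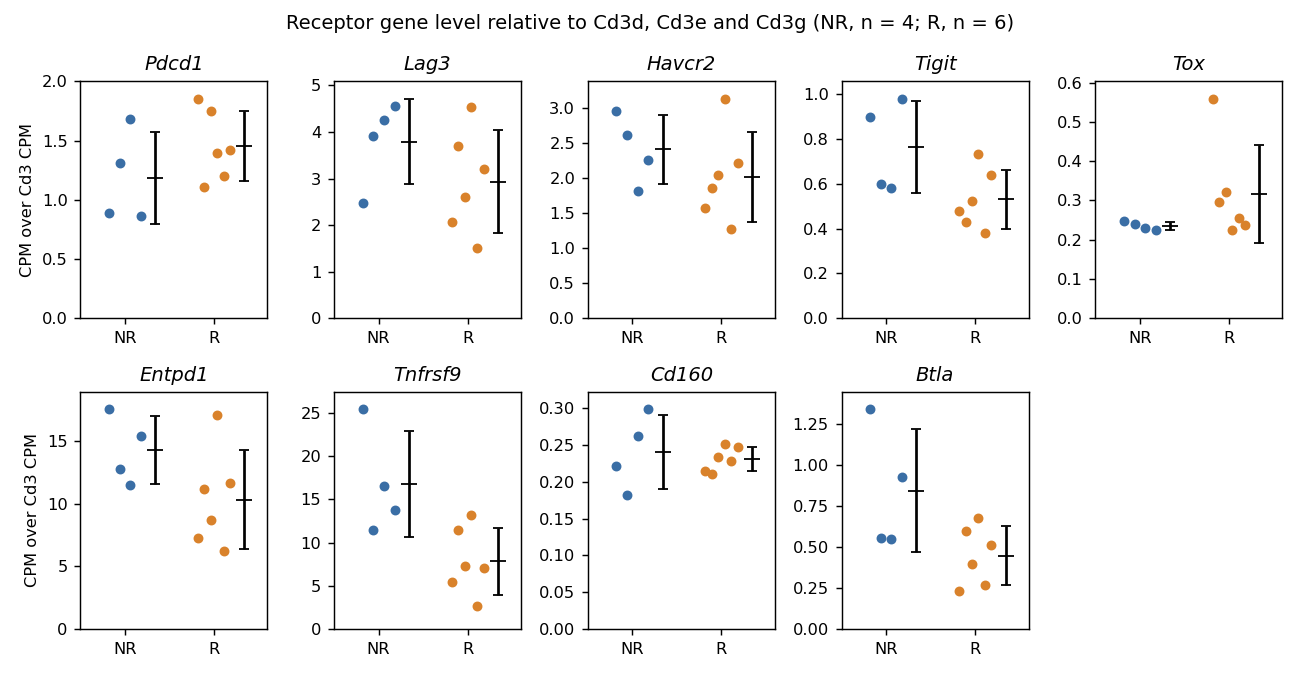
Level of each of the 9 genes tested relative to T cell receptor RNA (y axis, CPM over the geometric mean CPM of Cd3d, Cd3e and Cd3g, no unit) in non-responders (NR, n = 4, blue) and responders (R, n = 6, orange), with 1 point per tumor and the mean ± SD. Cd160 is at 0.182 to 0.298 in all tumors, while 5 of 6 responders lie below every non-responder for Tnfrsf9. The log2 fold change of Tnfrsf9 in CPM was -0.04, and the Cd3 genes of the divisor had higher estimates in responders.

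The pattern of each gene over the tumors was compared with that of 13732 genes of at least 1 CPM, as Pearson's r of log2 CPM over 10 tumors after the mean of each group was subtracted. The values are descriptions across tumors that share depth and cell content. Pdcd1 was most like Themis, a T cell signaling gene (r = 0.977), Cd8a (r = 0.971) and the glutamate transporter gene Slc17a6 (r = 0.969). Tox was most like Gm21026 (r = 0.968), the T cell adaptor gene Sh2d2a (r = 0.967) and Abcb9 (r = 0.959), and its r with Cd3e was 0.953. Cd160 was most like Gimap8, Acta2 and Laptm5 (r = 0.977, 0.976 and 0.973), and Tigit most like the B cell receptor gene Cd79b, Fam169b and Mmp27 (r = 0.952, 0.942 and 0.938). With Cd3e the r of Cd160 was 0.915 and that of Tigit 0.875, and with Cd8a they were 0.918 and 0.837. Thus the deviations of Pdcd1, Tox, Cd160 and Tigit from their group means ran with those of Cd3e and Cd8a. They also ran with the macrophage marker Adgre1, at r of 0.846, 0.671, 0.807 and 0.76. The cell type behind these patterns was not tested.

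The closest patterns of Havcr2 and Entpd1, which were called higher in responders, and of Lag3, Tnfrsf9 and Btla follow. Havcr2 was most like Olfr1341, Gm17655 and Vmn1r-ps144 (r = 0.981, 0.979 and 0.978). Its r with Adgre1 was 0.942, against 0.842 with Cd3e and 0.864 with Cd8a. Entpd1 was most like Parvg, Trpm2 and Map3k1 (r = 0.985, 0.982 and 0.976), with 0.888 for Adgre1, 0.80 for Cd3e and 0.838 for Cd8a. Lag3 was most like Gm21750, the MHC gene H2-Bl and Gvin-ps2 (r = 0.984, 0.974 and 0.973). It had 0.557 for Cd3e, 0.684 for Cd8a and 0.672 for Adgre1. Tnfrsf9 was most like Mgarp, Nav3 and Csrnp1 (r = 0.958, 0.93 and 0.927), and Btla was most like Fbxl12, Ramp1 and Rnf8 (r = 0.909, 0.90 and 0.891). Tnfrsf9 and Btla had low r with Cd3e (0.066 and 0.254), with Cd8a (0.284 and 0.209) and with each other (-0.065).

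**Figure D5:**
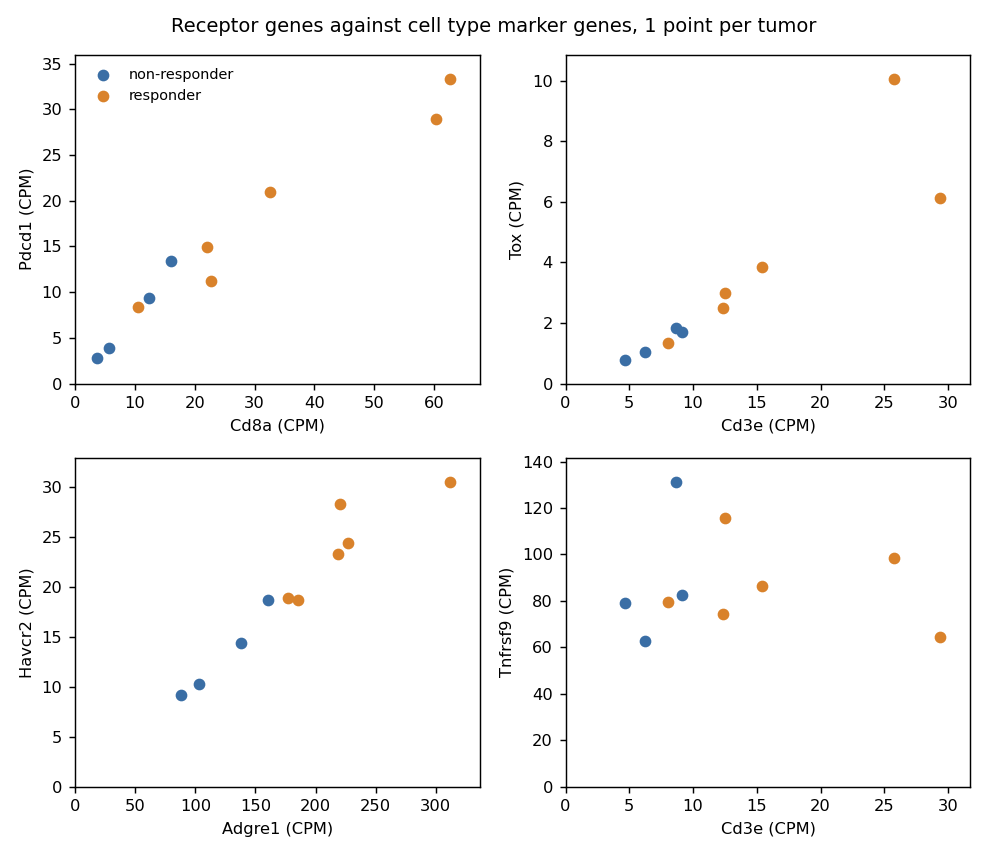
Levels in CPM of 4 receptor genes (y axes) against a cell type marker gene in the same tumor (x axes), with non-responders in blue and responders in orange. Pdcd1 against Cd8a, Tox against Cd3e and Havcr2 against Adgre1 lie along a rising line in both groups, with r of 0.971, 0.953 and 0.942 on the log2 scale after group means were subtracted, while Tnfrsf9 shows no such line with Cd3e at 0.066.

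The ligands of these receptors were compared in the same fit, in which 756 of 16041 genes were called higher and 537 lower. Of 14 ligand genes, 13 were tested, 0 were called higher and Pvr was called lower, and the median log2FC was 0.14. Pvr, which encodes the poliovirus receptor bound by TIGIT, was at 66.1 ± 7.48 against 87.0 ± 10.7 CPM (log2FC -0.39, SE 0.10, edgeR adjusted p = 0.0378). Lgals9, which encodes the TIM-3 ligand galectin-9, had the next smallest p, with 89.8 ± 11.7 against 66.6 ± 10.9 CPM (log2FC 0.43, SE 0.12, edgeR adjusted p = 0.0511). Fgl1, a ligand of LAG-3, was at most 0.344 CPM and was not tested.

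Of 13 other inhibitory receptor genes, all were tested, all had a higher estimate in responders and 6 were called, with a median log2FC of 0.60. These were Vsir, which encodes VISTA (0.52, edgeR adjusted p = 0.0281), the collagen receptor gene Lair1 (0.68, 0.0372), Klrc1, which encodes NKG2A of NK and CD8 T cells (1.70, 0.042), Cd72 (0.87, 0.0359), Pilra (0.61, 0.0453) and Lilrb4a (0.49, 0.0425), each given as a log2FC with its edgeR adjusted p. Several of these are best known from cells other than T cells, Cd72 from B cells and Pilra and Lilrb4a from myeloid cells. Of 9 costimulatory receptor genes, 8 were tested, all with a higher estimate, and Cd27 and Cd226 were called (log2FC 1.07 and 1.31, edgeR adjusted p = 0.0496 and 0.033). CD226 competes with TIGIT for the poliovirus receptor.

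Of 18 genes of the exhaustion program and of adenosine signaling, 17 were tested, 15 had a higher estimate and 6 were called higher, with a median log2FC of 0.37. The largest was Cxcr6, a chemokine receptor gene of resident T cells, at 13.1 ± 9.46 against 2.97 ± 1.68 CPM (log2FC 2.15, SE 0.58, edgeR adjusted p = 0.0469). The T-bet gene Tbx21, the inhibitors of DNA binding Id2 and Id3, the ectoenzyme gene Cd38 and the adenosine receptor gene Adora2a had log2FC values of 1.57, 0.50, 0.84, 0.55 and 0.72 (edgeR adjusted p = 0.0372, 0.0461, 0.0432, 0.0499 and 0.0349). Of 9 genes of progenitor T cells, 5 had a higher estimate and 0 were called by edgeR, 1 had an unadjusted p under 0.05, and the median log2FC was 0.13. The smallest p were those of Slamf6 (log2FC 0.46, edgeR adjusted p = 0.109) and Myb (0.24, edgeR adjusted p = 0.282). Over the 5 lists together, 60 of 63 genes were tested, 14 were called higher and 1 lower, and 49 had a higher estimate. Among all genes tested, 4.71% were called higher and 48.2% had a higher estimate.

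The calls changed with the Cd3 covariate, with the test and with single tumors. The Cd3 level moves with the response group, so the part of cell content in the lost calls was not tested. With the Cd3 covariate 0 of the 60 genes of the 5 lists passed, and their median log2FC was 0.09 against 0.42 without it. By the DESeq2 Wald test 6 of the 9 receptor genes tested passed, namely Pdcd1, Tigit, Tox, Cd160, Havcr2 and Entpd1, all higher in responders, where 10.4% of all genes with a DESeq2 adjusted p were called higher. The number of these genes called by edgeR was 4 without responder 4, when Tox and Cd160 also passed and 1619 of all genes did. It was 2 without non-responder 2 and 1 without non-responder 3, with 1897 and 366 of all genes, and 0 without any 1 of the other 7 tumors, with 0 to 735 of all genes. Without non-responder 4 no gene of all those tested passed, and 4106 had an unadjusted p under 0.05.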

How the data were processed

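RNA of 10 CT26 tumors, 6 of responders and 4 of non-responders by the response in the labels, was analyzed. The authors assessed reads with FastQC, quantified transcripts with Kallisto and summed them to genes with tximport on mm10, and the submitters' processing notes name GRCm38. The deposited values are estimated counts by the authors, given as raw counts, and 45.1% of them were not whole. The sources used here do not give the annotation release, the strand setting or the scaling option of tximport, and pseudoalignment divides reads of shared sequence between genes. Of 36009 rows, 9633 had no gene name and held 1.04% to 1.23% of the counts of a tumor. They kept their identifier and stayed in the fit, and 35912 rows matched the GENCODE annotation of GRCm38 that gave positions and exon lengths.

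Counts were rounded and tested in R 4.3.3 with edgeR 4.0.16 (filterByExpr with minimum count 10 and minimum total count 15, TMM scaling, glmQLFit and glmQLFTest, two-sided, Benjamini-Hochberg adjustment over all genes tested, threshold 0.05), a script checked on simulated counts. The filter took out no more than 0.0716% of any library. CPM are relative to TMM-scaled totals, with a prior count of 2 for log2 CPM. Intervals and limits from counts cover counting error only. Alternatives were DESeq2 1.42.0, limma-voom (limma 3.58.1), other scaling and filters, robust dispersion, thinned libraries, covariates and each tumor left out. The covariate of macrophage markers, the further settings of the fit with the Cd3 covariate and those for Ctla4 without the filter were chosen after seeing the data.

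The receptor genes, the other lists and the tests were chosen with earlier results of these data known. Named genes are the receptor genes, those of each list with an adjusted p under 0.05 or among the 2 of smallest p, the 3 most alike in pattern to each receptor gene with a mean of at least 1 CPM, and defining cell markers. Marker genes named for absence or as the called gene of a list were named after their values were seen. The same holds for marker genes named for their part in a sum, as not called or with a lower estimate. The labels give no batch, so none was fitted.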

Additional observations from a re-analysis of the deposited data

Results flagged for a closer look

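In 20 groups of values, the 10 receptor genes in 6 responders and in 4 non-responders, 2 tumors stood far from the rest of their group on the log2 scale, where chance gives about 1. Ctla4 in non-responder 2 had a gap to the nearest tumor of 1 times the range of the group, because it was the only non-responder with any count (3.29 estimated counts). Tigit in non-responder 1, at 2.79 CPM, lay below the other non-responders, and the gap was 0.8473 of their range. The same tumor had the lowest Cd3 level of all, 3.11 CPM, and the part of T cell content in its Tigit level was not tested.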

How the results depend on the processing

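The number of receptor genes called (2) was the same with DESeq2 size factors, library totals alone, no filter, the CPM minimum of the time course of the study, limma-voom, robust dispersion and thinned libraries. By DESeq2 it was 6, and the count over all genes was 2602 instead of 1293. With the T cell, Ptprc, skeletal muscle and macrophage covariates 0 receptor genes, 0 of the genes in the 5 lists (15 without a covariate) and 0 genes of all tested passed by edgeR, with 1539, 845, 1118 and 1106 of all genes at an unadjusted p under 0.05 and 1, 0, 3 and 0 of the receptor genes. The median log2 fold change of the receptor genes was 0.48 with the skeletal muscle covariate and 0.05, 0.07 and 0.07 with the T cell, Ptprc and macrophage covariates, against 0.70 without one. When each tumor was left out in turn, 0 to 4 receptor genes, 0 to 19 genes of the 5 lists and 0 to 1897 of all genes passed. The fits with fewer tumors have fewer samples, and beyond that the cause was not tested.

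The sign of some estimates turned, each with an edgeR adjusted p over 0.4. With the Ptprc covariate Pdcd1, Lag3 and Cd160 were at -0.0246, -0.2366 and -0.0458 on the log2 scale. With the macrophage covariate Pdcd1, Lag3, Tigit, Cd160 and Tnfrsf9 were at -0.2321, -0.1266, -0.2075, -0.2752 and 0.143. With the skeletal muscle covariate Tnfrsf9 and Btla were at 0.1136 and -0.0032. Tnfrsf9 ranged from -0.173 to 0.2121 over the fits that left out 1 tumor and was above 0 without responder 5, responder 6 or non-responder 3. Per length, the order of the genes was the same with the longest transcript. No paired analysis applied, because responders and non-responders were different mice. The labels give no replicate numbers, and tumors were numbered in the order of their labels. Ctla4 had the fewest counts of the receptor genes, at most 25.4 in a tumor, and the part of depth in this was not tested.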
